A study of Mus musculus with 24 samples.

Results

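The 51 genes described here are a list of deafness and hair cell genes, and mutations in most of them cause hereditary deafness in humans or mice. They were chosen by name, from what is known of deafness genes, and with earlier results of these data known. They cover the actin core and motors of the hair bundle, the links between stereocilia, the mechanotransduction complex, the hair cell synapse, and the junctions, ion handling and matrix of the cochlear epithelium. All 51 were found by symbol among the 53946 genes of the count table. The libraries came from the ventral otocyst, the part of the embryonic mouse inner ear that holds the cochlear duct, at embryonic day 14.5, from C57BL/6J x 129X1/SvJ mice. Every embryo carried L10a-eGFP, a ribosomal protein fused to a green fluorescent protein, in cells of the Fgf20-Cre lineage, so that translating ribosome affinity purification (TRAP) with an anti-GFP antibody could take up the ribosomes of those cells with their RNA. Controls were not wild type: het denotes Fgf20+/- and mut denotes Fgf20-/-, and Fgf20 is a growth factor of the prosensory domain. There were 8 TRAP libraries of each genotype and 4 pre-TRAP libraries of each, all 4 groups split evenly over 2 experiments. Between 3 and 7 embryos of the same genotype were pooled for a library. The labels give the pre-TRAP libraries no protocol of their own. They are read here as RNA of the whole dissected tissue, as their name says, and p-values measure the spread between pools.

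Hair cells turn sound into receptor current with a bundle of actin-filled stereocilia. Tip links of the cadherins CDH23 and PCDH15 pull on a channel complex built around the TMC proteins, and the Usher proteins harmonin, SANS, whirlin, ADGRV1 and CLRN1 anchor and space the links. At the base of the cell otoferlin drives release of glutamate loaded by VGLUT3, while supporting and lateral wall cells recycle potassium through connexin channels. At the age studied the cochlear prosensory cells have just left the cell cycle and the first hair cells are beginning to form, so many of these genes are known mainly from later stages.

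Libraries held 30700000 to 53400000 counts, and values are given as CPM, counts scaled to a common library size and TMM-normalised over the 24 libraries. Fgf20 itself ran from 3.13 to 5.92 CPM in TRAP het and from 0.818 to 3.03 CPM in TRAP mut, and from 0.381 to 1.71 CPM in pre-TRAP het and 0.138 to 0.294 CPM in pre-TRAP mut. The genotypes did not overlap in either kind of library, although edgeR's quasi-likelihood test gave adjusted p of 0.188 and 0.837. The labels do not say which part of the gene is removed. Markers of the tissue were present: all 6 hair cell transcription factors tested, all 9 prosensory genes and 7 of 8 epithelial genes were higher in TRAP than in pre-TRAP, with Atoh1 at a mean of 6.20 CPM in TRAP het against 1.09 CPM in pre-TRAP het. Of 6 supporting cell markers, 4 were higher and 1 lower. Markers of the roof and vestibular epithelium went mostly the other way, with 1 of 6 tested higher and 4 lower. All 10 neuronal markers were higher in TRAP as well, with a summed level of 2739 to 5074 CPM in the TRAP libraries of both genotypes against 504 to 803 CPM in the pre-TRAP libraries. Periotic mesenchyme markers were lower in 8 of 10 cases and erythroid markers in 7 of 7, and no list of markers had a gene at 0 in all TRAP libraries. TRAP libraries 3, 4, 5 and 6 held the most mesenchyme RNA among TRAP libraries, and results are also given without them. In bulk RNA, fewer cells of a type and less RNA per cell cannot be told apart.

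Which deafness genes were present in the tagged ribosome fraction at this age was asked first, with a line of 1 CPM in each of the 16 TRAP libraries. Of the 51 genes, 29 (56.9%) met it, against 26.5% of all genes in the table and 32.5% of the genes with any count. Another 10 were above the line in some TRAP libraries only, and 12 stayed under 1 CPM in all 16. In the 8 pre-TRAP libraries 30 genes met the same line, against 27.7% of all genes. The count in TRAP was 25 with a line of 2 CPM and 35 with a line of 0.5 CPM. The table also lists 10068 genes with no count in any library. Among the 24242 genes that passed the edgeR count filter over all 24 libraries, 14277 met the line of 1 CPM in TRAP. Of the 45 deafness genes that passed the filter, 29 did, so that the shares lay closer together than over the whole table. RNA of cells outside the lineage also reached this fraction: Hbb-bt, an adult globin of red blood cells, had a mean of 113.0 CPM in TRAP het and 1659 CPM in pre-TRAP het. A level above the line therefore shows RNA in the fraction, and the comparison with pre-TRAP shows where the fraction held more of it. Gene lengths were not used here, so no level is compared between genes.

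By role, with few genes in each and no test between roles, the counts were as follows. For all roles the shares to set beside them are those over all genes. Of genes with any count 32.5% met the line, as did 14277 of the 24242 that passed the edgeR count filter. Of 16 genes for bundle actin and its motors, 12 met the line in each TRAP library (Myo7a, Myo6, Espn, Triobp, Rdx, Diaph1, Actg1, Eps8, Pls1, Clic5, Tprn and Grxcr1), whereas Eps8l2, Fscn2 and Grxcr2 were mixed and Myo3a was under it. Of 9 genes for stereocilia links and the Usher scaffold 3 met it (Pcdh15, Ush1c and Clrn1), or 33.3%. This was near the 32.5% of genes with any count and below the share of genes that passed the filter. Adgrv1, Whrn and Ptprq were mixed and Cdh23, Ush1g and Strc were under it. In the mechanotransduction complex Tmie, Lhfpl5 and Cib2 met it and the pore-forming Tmc1 and Tmc2 did not, while in pre-TRAP only Cib2 was at 1 CPM or more in all 8 libraries. Of the 6 synaptic and vesicle genes, Tbc1d24, Synj2 and Homer2 met it, Otof did so in 15 of 16 libraries, and Slc17a8 and Gipc3 in none. Slc26a5 (prestin, the motor of outer hair cells) and Loxhd1 were under 1 CPM throughout. Of 11 genes for junctions, ion and redox handling and matrix, 7 met it (Gjb2, Gjb6, Crym, Wfs1, Marveld2, Ildr1 and Tmprss3), Slc26a4, Msrb3 and Coch were mixed, and Bsnd, the barttin subunit of chloride channels, was under it. Among the transcription factors Grhl2 met it and Esrrb did not.

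**Figure D1:**
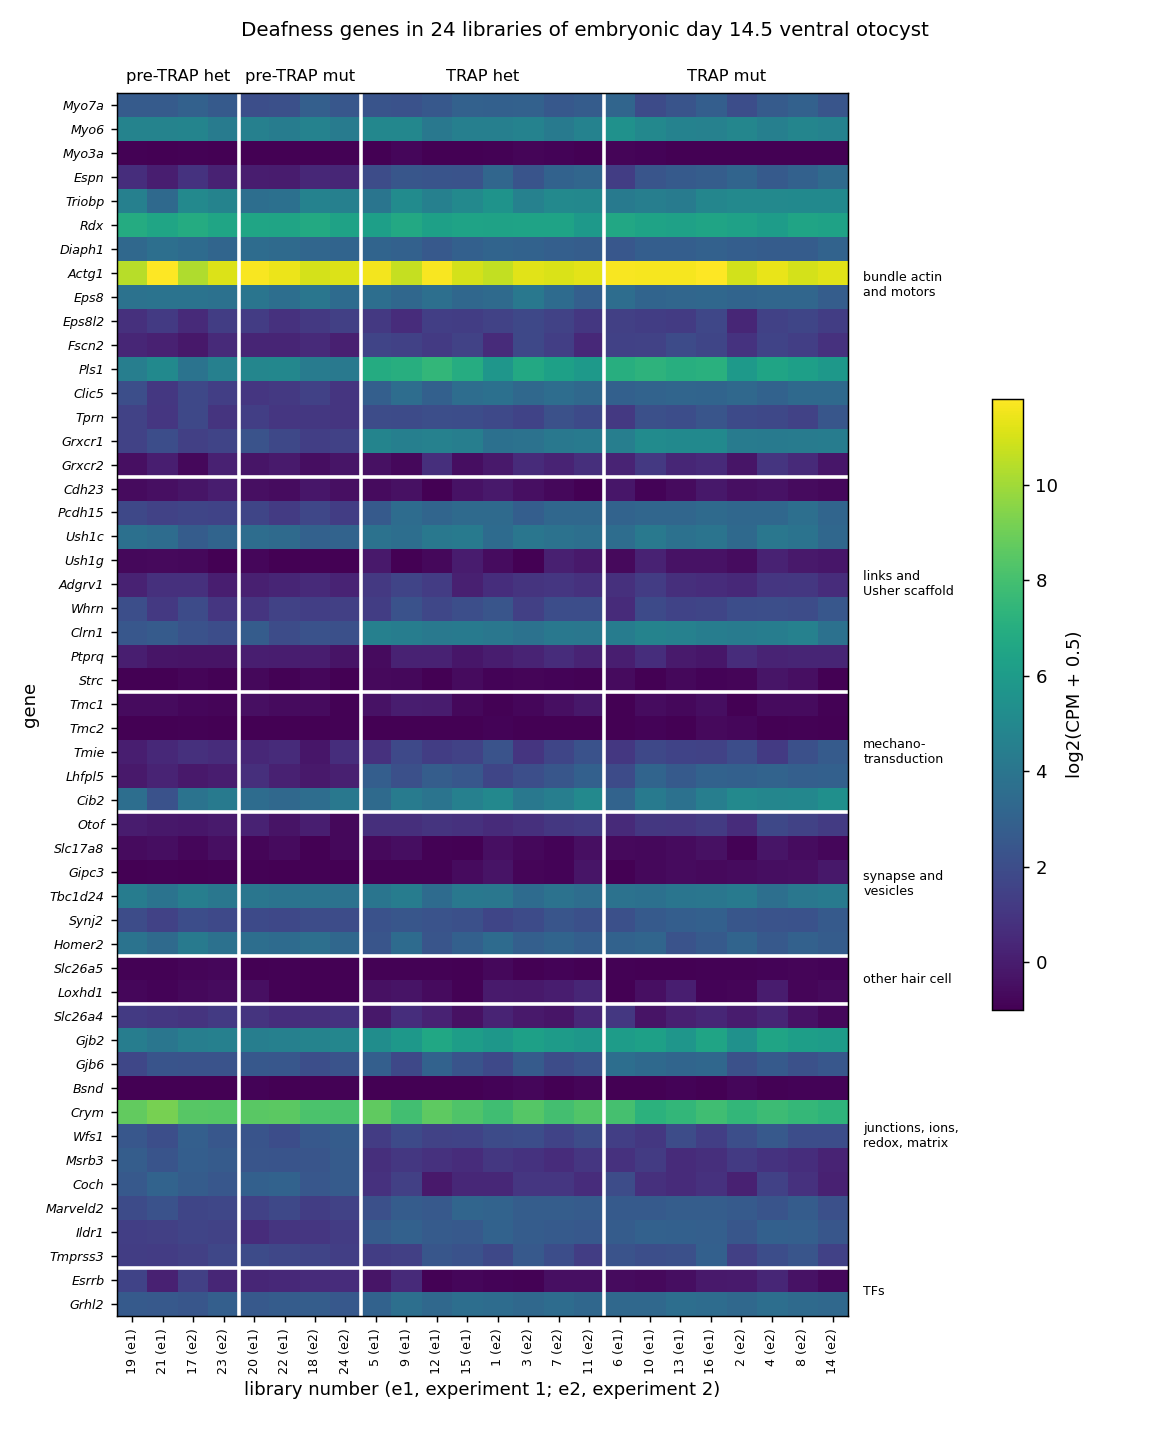
Level of each of the 51 deafness genes in each of the 24 libraries, as log2(CPM + 0.5) on the colour scale, with genes in rows by role and libraries in columns by group and experiment. Grxcr1, Lhfpl5 and Pls1 are brighter in the TRAP columns and Coch and Msrb3 in the pre-TRAP columns, and the 12 genes under 1 CPM in all 16 TRAP libraries, such as Myo3a, Tmc2 and Slc26a5, form dark rows.

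Several of the dark rows hold genes of mature hair cells. Myo3a, a motor at stereocilia tips, had 12 counts summed over the 16 TRAP libraries and 3 over the 8 pre-TRAP libraries, and was at 0 in 10 TRAP libraries. Tmc2, the channel subunit of immature hair cells, had 14 counts in TRAP and 2 in pre-TRAP, and was at 0 in 11 TRAP libraries. These rates have a TRAP to pre-TRAP ratio of 2.00 (95% interval 0.539 to 11.0) for Myo3a and 3.49 (0.803 to 31.7) for Tmc2, exact intervals that cover counting error only, so that no difference was detectable at this depth. Slc26a5 summed to 19 and 8 counts (ratio 1.19, 0.496 to 3.13), Bsnd to 16 and 4 (ratio 2.00, 0.644 to 8.21) and Slc17a8, which encodes VGLUT3, to 84 and 36 (ratio 1.16, 0.780 to 1.77). Strc, which encodes the link protein stereocilin, summed to 57 and 12 counts, a ratio of 2.37 (1.26 to 4.86). These 6 genes fell below the count filter and enter no test between libraries. Tmc1, the pore subunit of mature hair cells, passed the filter with 112 counts in TRAP and 38 in pre-TRAP (ratio 1.47, 1.01 to 2.19). Cdh23 passed it with no TRAP library above 0.410 CPM.

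The TRAP and pre-TRAP libraries were then compared over all 24 libraries with genotypes weighted equally, which shows which deafness RNAs the tagged fraction held in excess over the tissue. Of the 45 genes tested, 25 were higher in TRAP and 10 lower, and 10 were not called; over all genes tested 27.9% were higher and 31.2% lower (edgeR quasi-likelihood test, Benjamini-Hochberg adjusted p under 0.05). An unadjusted p under 0.05 was reached by 38 of the 45, against 62.7% of all genes. Gipc3, Ush1g and Loxhd1, all called higher, passed the count filter through the TRAP libraries alone. Their calls are therefore not independent of the filter. The median log2 change was 0.58 over these genes and -0.01 over all genes tested. In 12 of the 45 every TRAP library lay above every pre-TRAP library, against 6.42% of all genes, and in 2 every one lay below, against 8.15%. Among the 29 genes present in each TRAP library, 18 were higher (62.1%, against 35.4% of all genes present in this way), 6 lower (20.7%, against 30.4%) and 5 not called. Presence was judged on TRAP levels alone, which favours genes higher in TRAP in both sets. These shares are therefore not separate support. In experiment 1 alone 18 of the 25 higher and 9 of the 10 lower genes passed, and in experiment 2 alone 21 and 7. Without the 4 TRAP libraries richest in mesenchyme RNA, all 25 and all 10 passed. The neuronal, hair cell and mesenchyme marker levels given above moved with this comparison, and their part in it was not tested.

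**Figure D2:**
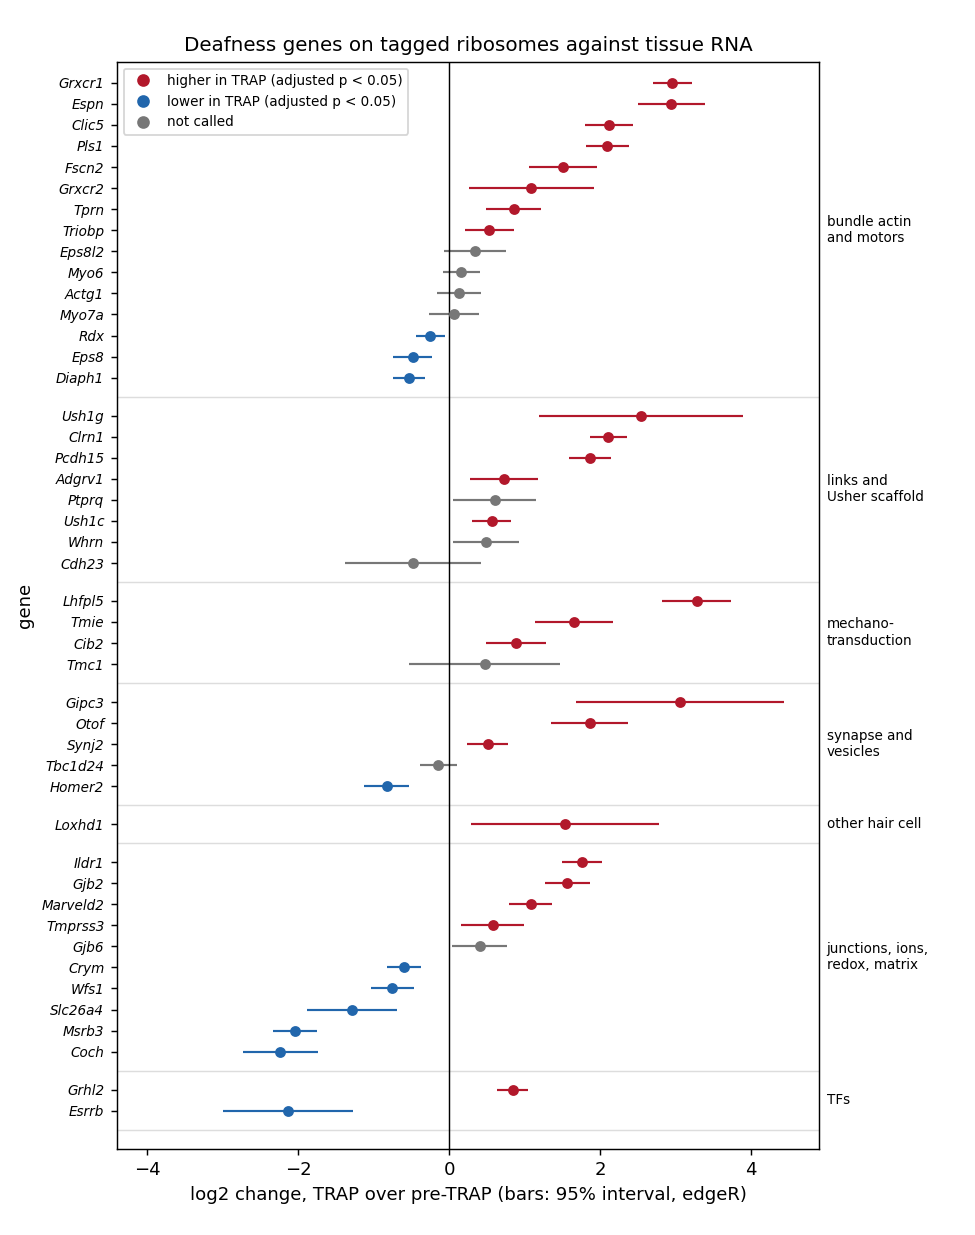
Log2 change of TRAP over pre-TRAP for the 45 genes tested, by role, with 95% intervals from edgeR; red, higher; blue, lower; grey, not called. The mechanotransduction and link genes have no blue point, whereas the junction, ion and matrix genes split into 4 red and 5 blue points.

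Upstream sequence is shown for the 3 largest rises and the 2 largest falls among called genes that averaged 2 CPM or more and have a single RefSeq promoter, since these genes mark the ends of the comparison. Each run holds the 250 bases before the RefSeq start in GRCm38.p6, 5′ to 3′ on the strand of the gene. Capitals mark CANNTG, the core of the E-box read by basic helix-loop-helix factors such as ATOH1. The motif is its own reverse complement, so that a search on either strand finds the same places, and neighbouring matches may overlap. Lhfpl5 lies at chr17:28575469-28575718 (+ strand), Grxcr1 at chr5:68031585-68031834 (+), Clic5 at chr17:44188322-44188571 (+), Coch at chr12:51593091-51593340 (+) and Msrb3 at chr10:120898972-120899221 (- strand).
Lhfpl5: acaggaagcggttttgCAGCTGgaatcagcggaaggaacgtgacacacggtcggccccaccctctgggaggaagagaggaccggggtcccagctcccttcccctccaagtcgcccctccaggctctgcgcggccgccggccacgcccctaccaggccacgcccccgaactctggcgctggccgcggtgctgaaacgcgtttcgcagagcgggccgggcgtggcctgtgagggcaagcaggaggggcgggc
Grxcr1: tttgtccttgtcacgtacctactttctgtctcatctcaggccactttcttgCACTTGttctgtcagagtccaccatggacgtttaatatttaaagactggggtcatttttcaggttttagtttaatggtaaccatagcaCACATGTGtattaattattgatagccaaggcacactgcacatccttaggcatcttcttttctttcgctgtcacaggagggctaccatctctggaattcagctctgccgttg
Clic5: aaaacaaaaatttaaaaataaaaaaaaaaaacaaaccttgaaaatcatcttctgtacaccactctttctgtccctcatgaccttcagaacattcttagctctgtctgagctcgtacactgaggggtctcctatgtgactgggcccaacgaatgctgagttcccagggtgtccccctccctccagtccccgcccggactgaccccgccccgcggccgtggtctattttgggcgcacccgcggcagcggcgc
Coch: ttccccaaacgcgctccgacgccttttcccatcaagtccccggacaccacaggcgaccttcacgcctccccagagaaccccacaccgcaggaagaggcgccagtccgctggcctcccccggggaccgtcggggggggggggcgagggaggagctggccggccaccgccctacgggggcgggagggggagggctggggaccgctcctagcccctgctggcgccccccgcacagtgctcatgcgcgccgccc
Msrb3: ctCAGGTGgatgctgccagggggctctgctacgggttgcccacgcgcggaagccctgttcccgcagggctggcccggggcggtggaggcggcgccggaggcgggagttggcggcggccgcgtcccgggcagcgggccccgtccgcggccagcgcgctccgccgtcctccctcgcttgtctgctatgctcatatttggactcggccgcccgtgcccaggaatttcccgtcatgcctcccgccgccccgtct
Lhfpl5 and Msrb3 each held 1 match, Grxcr1 held 3, a pair of which overlap, and Clic5 and Coch held none. Of the 52 promoters listed for 40 of the 51 genes, 65.4% held CANNTG, against 66.2% of all 32851 promoters of the same length. CAGCTG, a form of the E-box, stood in 13.5% against 13%, and TATAAA in 11.5% against 12.4%. Their median GC content was 57.8%, against 52.4% for all promoters.

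Among the bundle actin genes, 8 of 15 tested were higher in TRAP, 3 lower and 4 not called. Over all genes tested 27.9% were higher and 31.2% lower. Each role holds few genes, and none was tested against these shares. Grxcr1, a glutaredoxin-like protein needed for stereocilia to gain their width, stood at 2.23, 2.37, 3.62 and 2.60 CPM in the pre-TRAP het libraries and at 2.12, 4.32, 2.95 and 2.31 CPM in pre-TRAP mut. In TRAP het it ran from 12.8 to 27.3 CPM (median 19.8), and in TRAP mut from 18.2 to 35.8 CPM (median 20.7). No TRAP library came down to the pre-TRAP range, and the log2 change was 2.96 (SE 0.13, adjusted p 1.85e-16). Espn encodes espin, which bundles actin in stereocilia. Its pre-TRAP values were 1.34, 1.10, 0.547 and 0.671 CPM in het and 0.828, 0.504, 0.472 and 0.780 CPM in mut, against 3.50 to 8.96 CPM (median 4.63) in TRAP het and 2.00 to 10.2 CPM (median 5.97) in TRAP mut. The groups were again apart, with a log2 change of 2.94 (SE 0.21, adjusted p 6e-12). Pls1, an actin-bundling plastin, stood at 14.4, 22.1, 33.2 and 23.3 CPM in pre-TRAP het and at 19.8, 28.8, 29.9 and 17.5 CPM in pre-TRAP mut. It reached 52.2 to 180 CPM (median 113) in TRAP het and 56.9 to 156 CPM (median 108) in TRAP mut, a log2 change of 2.10 (SE 0.14, adjusted p 9.93e-13) with no overlap. Clic5, which sits at the stereocilia base with radixin and taperin, had 2.90, 3.78, 1.62 and 2.07 CPM in pre-TRAP het and 2.26, 1.55, 1.65 and 1.48 CPM in pre-TRAP mut. All TRAP libraries were higher, from 6.84 to 12.6 CPM (median 10.5) in het and from 7.18 to 9.98 CPM (median 8.35) in mut, with a log2 change of 2.12 (SE 0.15, adjusted p 4.83e-12).

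The other rises in this role were Fscn2 (a fascin, log2 change 1.51, SE 0.22), Grxcr2 (1.09, SE 0.40), Tprn (taperin, 0.86, SE 0.18) and Triobp, which bundles rootlet actin (0.53, SE 0.16). Diaph1, a formin that elongates actin, was lower in TRAP: it stood at 10.7, 9.45, 12.3 and 8.66 CPM in pre-TRAP het and at 8.75, 10.9, 10.1 and 8.19 CPM in pre-TRAP mut. TRAP het ran from 5.52 to 8.34 CPM (median 7.21) and TRAP mut from 5.09 to 7.90 CPM (median 6.52), so that TRAP het and pre-TRAP mut overlapped in a narrow range. Its log2 change was -0.53 (SE 0.10, adjusted p 6.58e-05), and in experiment 2 alone -0.33 (adjusted p 0.0797). Eps8, which caps actin at stereocilia tips, had a log2 change of -0.48 (SE 0.12) and Rdx, radixin, one of -0.25 (SE 0.09). Myo7a and Myo6, the unconventional myosins of the bundle and cuticular plate, differed by 0.07 (95% interval -0.27 to 0.40) and 0.16 (-0.08 to 0.40). Their levels in TRAP and pre-TRAP thus lay close together, with Myo7a at 3.26 to 8.71 CPM over the 16 TRAP libraries and 3.74 to 7.30 CPM over the 8 pre-TRAP libraries. Actg1, cytoplasmic gamma actin, differed by 0.13 (-0.17 to 0.42), but its reads can be split with those of Actb and of actin pseudogenes, so its counts are uncertain. Eps8l2 differed by 0.35 (-0.06 to 0.75).

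Of the genes for links and the Usher scaffold, 5 of 8 tested were higher (27.9% of all genes) and none was lower (31.2%). Pcdh15, the lower partner of the tip link, had 2.70, 2.96, 2.40 and 2.49 CPM in pre-TRAP het and 2.76, 2.75, 1.83 and 2.01 CPM in pre-TRAP mut. It rose to 5.65 to 11.0 CPM (median 9.21) in TRAP het and 7.80 to 12.4 CPM (median 9.04) in TRAP mut, without overlap (log2 change 1.86, SE 0.14, adjusted p 5.27e-12). Its partner Cdh23 ran from 0 to 0.410 CPM in TRAP and from 0.141 to 0.531 CPM in pre-TRAP and was not called by edgeR (-0.48, 95% interval -1.38 to 0.43). With limma voom its log2 change was -0.98 (adjusted p 0.0428). Clrn1, a clarin membrane protein, stood at 4.13, 5.08, 5.88 and 3.55 CPM in pre-TRAP het and at 4.14, 6.06, 3.39 and 3.85 CPM in pre-TRAP mut, against 13.5 to 23.2 CPM (median 17.3) in TRAP het and 13.3 to 26.2 CPM (median 20.9) in TRAP mut. Every TRAP library was above every pre-TRAP library (log2 change 2.11, SE 0.12, adjusted p 6.07e-14). Ush1c, which encodes harmonin, rose by less (0.56, SE 0.13), as did Adgrv1, the large receptor of the ankle links (0.73, SE 0.22). Ush1g, the scaffold SANS, was scarce throughout: pre-TRAP het held 0.112, 0.113, 0.119 and 0 CPM and pre-TRAP mut 0.0276, 0.0839, 0 and 0 CPM. In TRAP het it ran from 0 to 0.599 CPM (median 0.299) and in TRAP mut from 0.125 to 0.677 CPM (median 0.317). Its 201 counts in TRAP and 18 in pre-TRAP give a ratio of 5.57 (95% interval 3.44 to 9.60, counting error only), and the fitted log2 change was 2.54 (SE 0.66, adjusted p 0.00163). That value was 1.90 in experiment 1 alone, with adjusted p 0.0773, and 3.26 without library 20. Ush1g entered the test through the TRAP libraries alone, since no pre-TRAP library had more than 5 counts. Whrn, whirlin, at 0.49 (95% interval 0.05 to 0.92, adjusted p 0.0516), and Ptprq, a phosphatase of the shaft connectors, at 0.61 (0.06 to 1.16, adjusted p 0.0541), were not called by edgeR. Whrn was called by DESeq2 (adjusted p 0.0383) and limma voom (0.0359), as was Ptprq (0.0422 and 0.0287).

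In the mechanotransduction complex 3 of 4 tested genes were higher in TRAP (27.9% of all genes). Lhfpl5, the tetraspan partner of PCDH15, stood at 0.418, 0.423, 0.690 and 0.503 CPM in pre-TRAP het and at 0.414, 1.15, 0.620 and 0.585 CPM in pre-TRAP mut. Its TRAP values were 2.72 to 7.07 CPM (median 4.92) in het and 3.28 to 8.36 CPM (median 7.11) in mut. No other of the 51 genes had a larger fitted log2 change than its 3.28 (SE 0.22, adjusted p 1.57e-12), and the groups did not overlap. Tmie, a small membrane protein of the channel complex, held 1.23, 0.564, 0.904 and 1.03 CPM in pre-TRAP het and 0.359, 0.860, 1.00 and 1.11 CPM in pre-TRAP mut, and 1.28 to 4.34 CPM (median 2.53) in TRAP het and 1.59 to 5.81 CPM (median 2.71) in TRAP mut. The lowest TRAP library lay just above the highest pre-TRAP library, with a log2 change of 1.65 (SE 0.25, adjusted p 2.66e-06). Cib2, the calcium-binding subunit, rose by 0.89 (SE 0.19). Tmc1 did not pass, with 0.47 (95% interval -0.54 to 1.47) on 112 counts in TRAP and 38 in pre-TRAP. The channel partners Lhfpl5 and Tmie thus rose in the tagged fraction. For the pore gene Tmc1 no difference was called, and Tmc2 was below the count filter.

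Synaptic and vesicle genes rose in 3 of 5 cases (27.9% of all genes) and fell in 1 (31.2%). Otof, the calcium sensor of hair cell transmitter release, had 0.362, 0.479, 0.381 and 0.447 CPM in pre-TRAP het and 0.552, 0.672, 0.295 and 0.111 CPM in pre-TRAP mut. TRAP het libraries held 1.00 to 1.80 CPM (median 1.26) and TRAP mut libraries 0.936 to 2.90 CPM (median 1.72), all above the pre-TRAP libraries (log2 change 1.86, SE 0.25, adjusted p 3.32e-07). Gipc3, a PDZ protein of hair cells and spiral ganglion neurons, entered the test through the TRAP libraries alone, since no pre-TRAP library had more than 1 count. It stood at 0, 0, 0.0238 and 0.0279 CPM in pre-TRAP het and at 0.0276, 0.0210, 0 and 0 CPM in pre-TRAP mut, against 0.0250 to 0.335 CPM (median 0.0502) in TRAP het and 0 to 0.382 CPM (median 0.145) in TRAP mut. Its 87 counts in TRAP and 4 in pre-TRAP give a ratio of 10.9 (95% interval 4.09 to 40.7, counting error only), beside a fitted log2 change of 3.05 (SE 0.67, adjusted p 0.000322). Synj2, a synaptojanin, rose by 0.51 (SE 0.13), and Tbc1d24, a vesicle traffic protein, did not pass (-0.14, 95% interval -0.39 to 0.10). Homer2, a scaffold of stereocilia tips and postsynaptic sites, was lower in TRAP. It stood at 18.2, 14.3, 10.3 and 13.2 CPM in pre-TRAP het and at 12.1, 11.7, 10.7 and 9.36 CPM in pre-TRAP mut, against 4.63 to 10.7 CPM (median 6.88) in TRAP het and 4.36 to 8.44 CPM (median 6.76) in TRAP mut. Its log2 change was -0.82 (SE 0.15, adjusted p 2.28e-05), with overlap only between the highest TRAP het and the lowest pre-TRAP libraries. Loxhd1, a stereociliary PLAT domain protein, had 163 counts in TRAP and 26 in pre-TRAP (ratio 3.13, 2.06 to 4.93, counting error only) and a fitted log2 change of 1.54 (SE 0.61, adjusted p 0.0318). That value was 0.96 (adjusted p 0.383) in experiment 1 alone and 2.81 (adjusted p 0.007) in experiment 2 alone, and limma voom did not call it (1.25, adjusted p 0.0618). Loxhd1 also entered the test through the TRAP libraries alone, as its pre-TRAP levels were below the count filter.

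Genes for junctions, ion and redox handling and matrix split, with 4 of 10 higher (27.9% of all genes) and 5 lower (31.2%). The rises included both genes of the tricellular junction. Ildr1, an angulin that seals the meeting point of 3 cells, held 2.54, 2.12, 2.17 and 2.40 CPM in pre-TRAP het and 1.55, 1.03, 1.48 and 1.89 CPM in pre-TRAP mut, and 5.27 to 7.62 CPM (median 5.88) in TRAP het and 4.86 to 7.35 CPM (median 6.88) in TRAP mut. TRAP was above pre-TRAP in all libraries (log2 change 1.76, SE 0.13, adjusted p 8.97e-12). Marveld2, tricellulin of the same junction, rose by 1.08 (SE 0.14), Gjb2, the connexin most often mutated in deafness, by 1.57 (SE 0.15) without overlap, and Tmprss3, a membrane serine protease, by 0.58 (SE 0.21). Gjb6, its partner connexin, came to 0.41 (95% interval 0.04 to 0.77) with adjusted p 0.0514 in edgeR, 0.0327 in DESeq2 and 0.04 in limma voom.

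Among the falls, Coch, the secreted matrix protein cochlin, stood at 6.05, 5.39, 7.83 and 4.97 CPM in pre-TRAP het and at 5.05, 7.22, 7.70 and 5.82 CPM in pre-TRAP mut. In TRAP het it was 0.424 to 2.16 CPM (median 1.16) and in TRAP mut 0.625 to 3.40 CPM (median 1.24), below every pre-TRAP library (log2 change -2.23, SE 0.24, adjusted p 9.25e-09). Msrb3, a methionine sulfoxide reductase, was likewise apart: 6.50, 6.29, 4.54 and 5.87 CPM in pre-TRAP het and 4.66, 4.64, 4.48 and 5.88 CPM in pre-TRAP mut, against 1.05 to 1.59 CPM (median 1.30) in TRAP het and 0.709 to 1.88 CPM (median 1.22) in TRAP mut. The log2 change of Msrb3 was -2.05 (SE 0.14, adjusted p 2.27e-12). Slc26a4, which encodes the anion exchanger pendrin, had 1.42, 1.75, 1.64 and 1.76 CPM in pre-TRAP het and 1.16, 1.39, 1.12 and 1.31 CPM in pre-TRAP mut. It was 0.237 to 1.08 CPM (median 0.547) in TRAP het and 0.109 to 1.62 CPM (median 0.537) in TRAP mut, where library 6 alone reached the pre-TRAP range (log2 change -1.29, SE 0.29, adjusted p 0.000411). Wfs1, wolframin of the endoplasmic reticulum, held 6.75, 5.05, 3.66 and 5.03 CPM in pre-TRAP het and 5.35, 4.51, 3.54 and 6.21 CPM in pre-TRAP mut. It held 1.88 to 3.51 CPM (median 2.86) in TRAP het and 1.59 to 5.40 CPM (median 3.50) in TRAP mut, a log2 change of -0.75 (SE 0.14, adjusted p 3.97e-05) with overlap. Crym, the thyroid hormone-binding mu-crystallin, stood at 351, 422, 585 and 345 CPM in pre-TRAP het and at 293, 367, 382 and 285 CPM in pre-TRAP mut. It stood at 235 to 405 CPM (median 316) in TRAP het and 150 to 259 CPM (median 180) in TRAP mut, and differed by -0.60 between the kinds of library (SE 0.11, adjusted p 2.9e-05).

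Both transcription factors were called, in opposite directions. Grhl2, a grainyhead factor of epithelia, rose by 0.84 (SE 0.10) with every TRAP library above every pre-TRAP library. Esrrb, an orphan nuclear receptor needed in the stria vascularis, stood at 2.23, 2.51, 0.642 and 0.782 CPM in pre-TRAP het and at 0.966, 0.797, 0.915 and 1.06 CPM in pre-TRAP mut. It was 0.0250 to 0.924 CPM (median 0.146) in TRAP het and 0.109 to 0.785 CPM (median 0.224) in TRAP mut, so that TRAP libraries 4 and 9 reached the lower pre-TRAP values (log2 change -2.13, SE 0.42, adjusted p 8.32e-05).

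**Figure D3:**
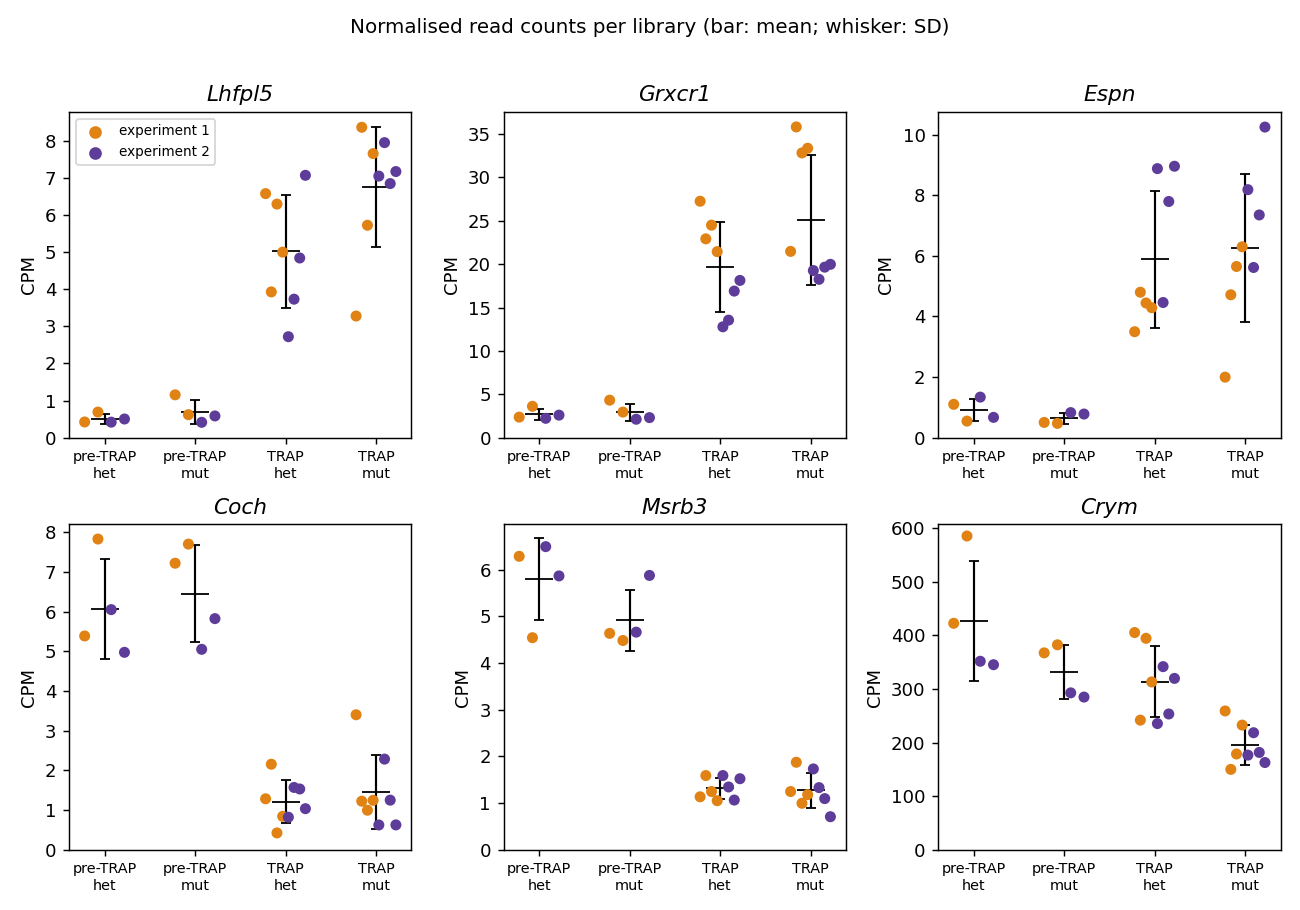
CPM of 6 deafness genes in each library by group, coloured by experiment, with the mean as a bar and the SD as a whisker. Lhfpl5, Grxcr1 and Espn are higher in all TRAP libraries than in any pre-TRAP library, Coch and Msrb3 lower, and Crym is lowest in TRAP mut.

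A few calls near the threshold rested on single libraries. Rdx was no longer called without library 5 (log2 change -0.20, adjusted p 0.0825), 17 (-0.20, 0.0812), 18 (-0.19, 0.0964) or 19 (-0.18, 0.145). Grxcr2 was lost without library 17 (0.93, adjusted p 0.0561) or 18 (0.99, 0.0534). Loxhd1 was lost without library 13, 17, 18, 21, 22 or 24 (1.22 to 1.54, adjusted p 0.0508 to 0.0752), and came to 2.53 without library 20. In the other direction, Gjb6 became called without any of libraries 1, 2, 5, 7, 8, 9, 14, 15, 17 or 23 (0.42 to 0.47, adjusted p 0.0193 to 0.0486). Whrn passed without library 3, 5, 6, 19 or 22 (0.53 to 0.69, adjusted p 0.00923 to 0.0361), Ptprq without library 5, 13, 15, 16, 19 or 20 (0.64 to 0.80, adjusted p 0.011 to 0.0493) and Eps8l2 without library 2 (0.41, adjusted p 0.0426). In each experiment alone Adgrv1 (adjusted p 0.0604 and 0.0828), Tmprss3 (0.0675 and 0.153) and Rdx (0.325 and 0.115) were not called, with the same direction in both. These members lie on both sides of the line. Apart from Rdx, Grxcr2 and Loxhd1, every gene called in TRAP against pre-TRAP kept its call whichever library was left out.

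Other genes of deafness and hair cell function served as a wider list: of 59 such genes outside the 51, 56 were tested, 30 were higher in TRAP (27.9% of all genes tested), 14 lower (31.2%) and 12 not called, with a median log2 change of 0.64. The largest rises were Xirp2 (3.71, an actin-binding protein of stereocilia, with 5 counts over the 8 pre-TRAP libraries and 164 over the 16 TRAP libraries), Cabp2 (3.44, a calcium-binding protein of the synapse), Smpx (3.18), Pou4f3 (2.99, a hair cell transcription factor), Tectb (2.89, beta-tectorin of the tectorial membrane) and Gfi1 (2.48). Xirp2 entered the test through the TRAP libraries alone.

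Whether loss of Fgf20 altered the deafness genes was asked separately in each kind of library. In TRAP none of the 43 genes tested was called with edgeR's quasi-likelihood test, where 0.0185% of all genes were higher and 0.0556% lower in mut. DESeq2 and limma voom each called 1, Crym, as lower. The shares of all genes called by these tools are not given here, so that count has no background beside it. At an unadjusted p under 0.05 in edgeR there were 4 (3.77% of all genes). No gene had genotypes that did not overlap (0.00463% of all genes were apart as higher and 0.0695% as lower). The median log2 change of mut over het was 0.09, against -0.02 over all genes. In pre-TRAP none of 41 was called by edgeR, DESeq2 or limma voom, where 0% of all genes were higher and 0.00455% lower by edgeR. Here 2 had an unadjusted p under 0.05 (4.77% of all genes) and the median was -0.15, against -0.03 over all genes. The test of the difference between the kinds of library called none of 45 (0% of all genes in either direction) with any of the 3 tools, and 1, Ildr1, had an unadjusted p under 0.05 (1.25% of all genes).

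Crym had the smallest p in TRAP. Its mean was 312.9 ± 66.1 CPM (SD, n = 8) in TRAP het and 194.8 ± 37.6 CPM (SD, n = 8) in TRAP mut, ranges that overlapped between 235 and 259 CPM. The log2 change was -0.69 (SE 0.14, 95% interval -0.98 to -0.41) with adjusted p 0.0559, just short of the threshold. Within experiment 1 the value was -0.71, and within experiment 2 it was -0.64. Crym was called lower without library 6 (-0.74, adjusted p 0.0417) or without library 9 (-0.75, 0.0375), with no filter on low counts (0.0184), by DESeq2 (0.00149) and by limma voom (0.0228). In pre-TRAP the same gene gave -0.36 (SE 0.14, p 0.0235, adjusted p 0.837 by edgeR), from 426 ± 112 CPM (SD, n = 4) in het to 332 ± 50.1 CPM (SD, n = 4) in mut. The difference between the kinds of library was -0.31 (95% interval -0.77 to 0.14) and was not called.

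The other genes with small p-values in TRAP were not called either. Grxcr1 differed by 0.33 (SE 0.12, p 0.00937, edgeR), with experiment 1 libraries of both genotypes above those of experiment 2. Synj2 differed by 0.40 (SE 0.15), from 2.67 to 4.82 CPM in het to 3.93 to 7.18 CPM in mut. Gjb6 differed by 0.50 (SE 0.20), Lhfpl5 by 0.42 (SE 0.20) and Eps8 by -0.33 (SE 0.16), each with overlapping ranges. In pre-TRAP, Ildr1 was lower in every mut library (1.03 to 1.89 CPM) than in any het library (2.12 to 2.54 CPM), with a log2 change of -0.66 (SE 0.22, p 0.0107, adjusted p 0.837 by edgeR). Slc26a4 also had all mut libraries below all het libraries, so 2 of 41 genes were apart in this way, against 0.779% of all genes, and none was apart the other way, against 0.46%. Ildr1 gave 0.04 (95% interval -0.24 to 0.32) in TRAP, and its difference between the kinds of library was 0.71 (95% interval 0.21 to 1.21, p 0.00755, adjusted p 1 by edgeR). Clic5 (-0.59), Marveld2 (-0.41), Myo7a (-0.39) and Gjb2 (0.29) followed in pre-TRAP, with unadjusted p above 0.05. Intervals bound what could be missed: in TRAP the log2 change of Myo7a lay between -0.51 and 0.35, that of Pcdh15 between -0.23 and 0.40 and that of Grhl2 between -0.25 and 0.26, while that of the scarce Esrrb lay between -0.85 and 1.77.

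**Figure D4:**
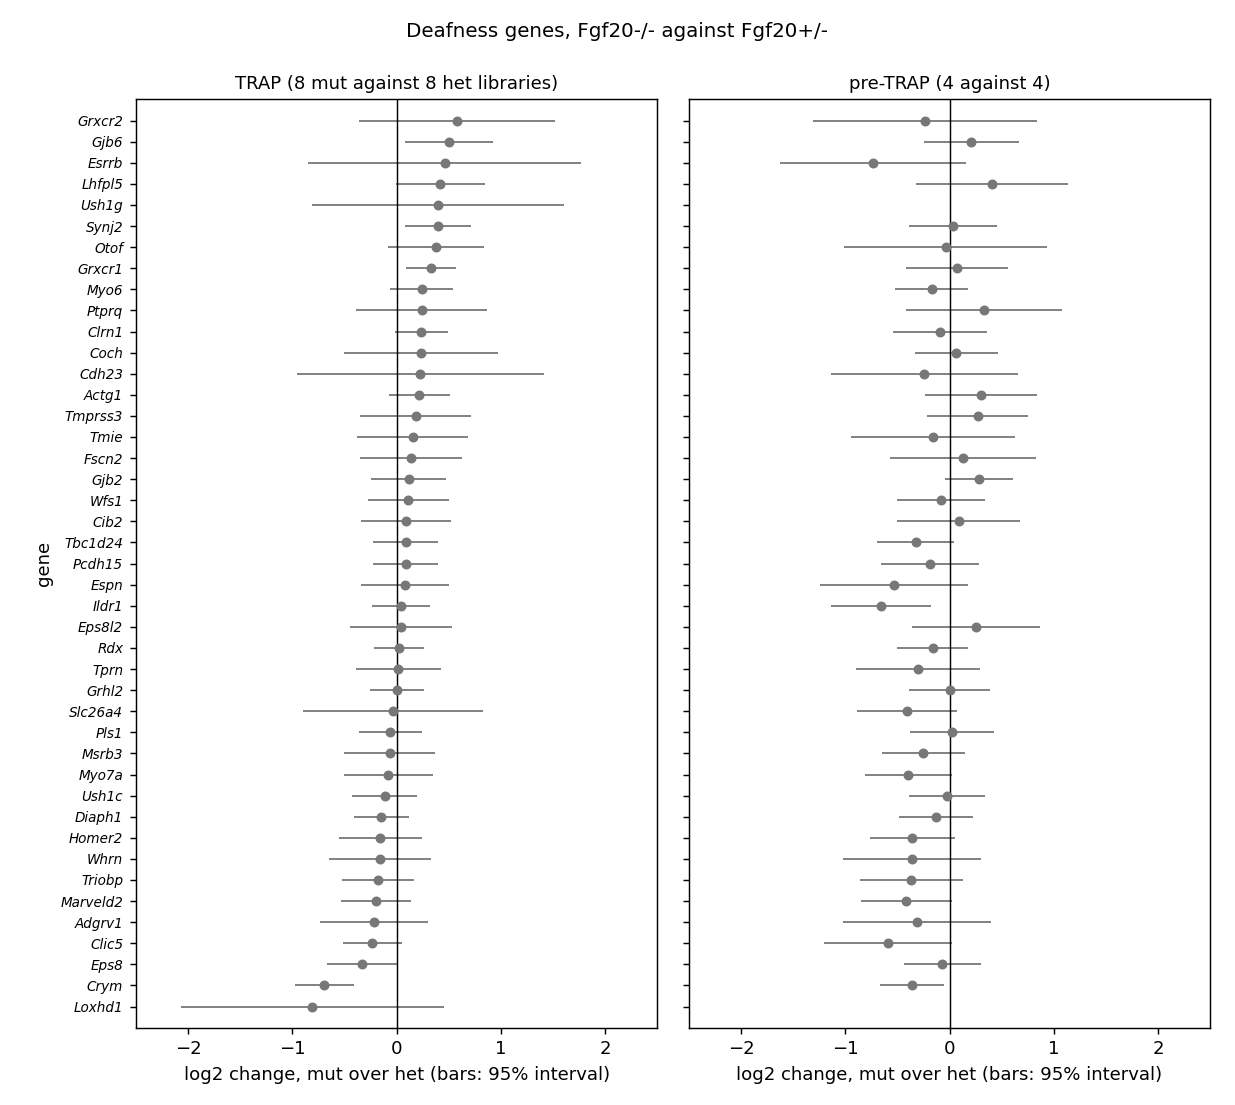
Log2 change of mut over het with 95% intervals, for the 43 deafness genes tested in TRAP (left) and the 41 tested in pre-TRAP (right), in the order of the TRAP values. All points are grey because none was called, and Ush1g and Loxhd1 have no pre-TRAP point because they were below the count filter there; Crym lies at -0.69 in TRAP with an interval that ends below 0.

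In the wider list of deafness and hair cell genes, 2 of 55 tested differed by genotype in TRAP. Over all genes 0.0185% were higher and 0.0556% lower in mut. The list was chosen with earlier results of these data known, so these calls are not independent of that choice. Smpx, a small muscle-type protein linked to X-linked deafness, was higher in mut (1.08, SE 0.15, adjusted p 0.00322), and Tectb was lower (-1.91, SE 0.15, adjusted p 1.24e-06). Tectb was also the single gene called of 51 tested in pre-TRAP (-1.90, SE 0.15, adjusted p 0.00032), where 0% of all genes were higher and 0.00455% lower.

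The 2 experiments, which the labels name as batches, each held both genotypes and both kinds of library. In TRAP 4 of 43 genes were higher in experiment 2 (14.1% of all genes) and 3 lower (8.81%), so neither share was above that over all genes. Cib2 ran from 8.08 to 23.3 CPM (median 16.8) in the 8 TRAP libraries of experiment 1 and from 17.0 to 41.6 CPM (median 30.3) in those of experiment 2, a log2 change of 0.89 (SE 0.21, adjusted p 0.00333). Espn went from 2.00 to 6.30 CPM (median 4.58) to 4.46 to 10.2 CPM (median 7.99), which is 0.84 (SE 0.20, adjusted p 0.00467). Wfs1 differed by 0.64 (SE 0.19, adjusted p 0.0166), and by 0.45 (adjusted p 0.117) without the 4 libraries richest in mesenchyme RNA. Triobp differed by 0.50 (SE 0.17, adjusted p 0.034). In the opposite direction, Pls1 ran from 119 to 180 CPM (median 129) in experiment 1 and from 52.2 to 107 CPM (median 68.0) in experiment 2, with no overlap and a log2 change of -0.88 (SE 0.14, adjusted p 0.000114). Grxcr1 was also apart, at 21.4 to 35.8 CPM in experiment 1 against 12.8 to 20.0 CPM in experiment 2 (-0.61, SE 0.12, adjusted p 0.000529), and Gjb6 differed by -0.68 (SE 0.20, adjusted p 0.0181). For Espn, Pls1 and Grxcr1 these differences within TRAP were smaller than the rise over pre-TRAP. For Cib2 the difference was as large as its rise over pre-TRAP (0.89 and 0.89). Gjb6 differed by more between experiments (-0.68) than from pre-TRAP (0.41, not called by edgeR). For Triobp (0.50 against 0.53) and Wfs1 (0.64 against -0.75) the sizes were close. In the TRAP mut libraries alone 6 of the 7 were called, with Cib2 at 1.18 (adjusted p 0.00664) and Pls1 at -0.92 (adjusted p 0.00206), and Espn was not (0.82, adjusted p 0.0872). In the TRAP het libraries alone none of the 7 was called, with Espn at 0.88 (adjusted p 0.067), Pls1 at -0.81 (adjusted p 0.0628), Grxcr1 at -0.58 (adjusted p 0.107), Cib2 at 0.63, Wfs1 at 0.40, Triobp at 0.39 and Gjb6 at -0.33. Neuronal markers summed to 4035 to 5074 CPM in the TRAP libraries of experiment 1 and 2739 to 4322 CPM in those of experiment 2, and melanocyte markers to 1.05 to 5.18 CPM and 28.9 to 66.8 CPM; their part in these differences was not tested.

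In pre-TRAP 1 of 41 genes was higher in experiment 2 (9.74% of all genes) and 1 lower (4.97%). Triobp stood at 9.80 to 23.5 CPM in the 4 libraries of experiment 1 and at 23.0 to 32.6 CPM in experiment 2 (0.92, SE 0.23, adjusted p 0.0171), and Ush1c at 10.3 to 12.6 CPM and 6.08 to 8.27 CPM (-0.59, SE 0.17, adjusted p 0.032). Triobp lost its call in TRAP without library 1, 2, 5, 6, 8, 10, 12, 13 or 14 (0.41 to 0.49, adjusted p 0.0556 to 0.0938) and in pre-TRAP without library 18, 20 or 22 (0.86 to 0.92, adjusted p 0.0522 to 0.0734). Ush1c lost it without library 17, 18, 19, 20, 22 or 24 (-0.64 to -0.46, adjusted p 0.0581 to 0.129). With total counts in place of TMM scaling the median log2 change of all genes between experiments shifted to 0.18 in TRAP and 0.25 in pre-TRAP, and the 7 and 2 genes called here kept their direction. In the wider list 3 of 55 genes tested were higher in experiment 2 in TRAP (14.1% of all genes), led by Pax3 (2.01), a transcription factor of melanocytes and glia, and 3 lower (8.81% of all genes), led by Chrna9 (-0.98), the nicotinic receptor subunit of hair cells.

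**Figure D5:**
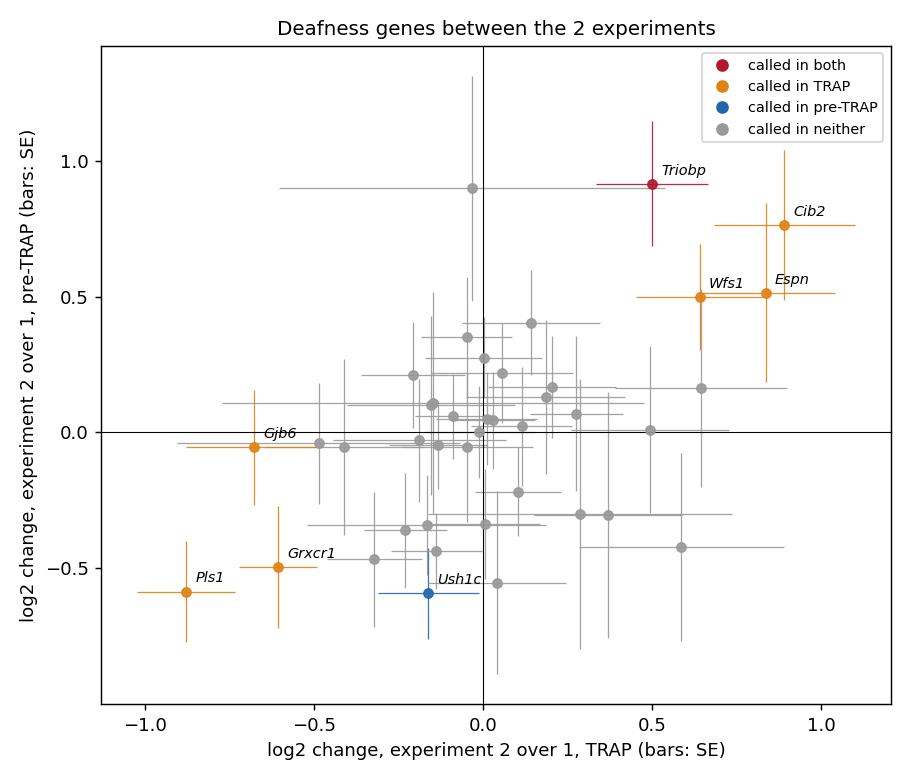
Log2 change of experiment 2 over experiment 1 in TRAP (x axis) and in pre-TRAP (y axis) for the 41 deafness genes tested in both, with SE bars, coloured by where the gene was called. Cib2, Espn, Wfs1 and Triobp lie to the upper right and Pls1 and Grxcr1 to the lower left, so these 6 moved the same way in both kinds of library.

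The genes also differed in how tightly the pools of a group held together. Among the 29 genes present in each TRAP library, the coefficient of variation in TRAP het ran from 13.4% for Diaph1 to 42.3% for Tmie (median 23.0%), and in TRAP mut from 9.88% for Grhl2 to 45.1% for Cib2 (median 22.4%). In pre-TRAP het it ran from 3.19% for Eps8 to 49.5% for Actg1, and in pre-TRAP mut from 6.02% for Tbc1d24 to 46.2% for Lhfpl5. By RefSeq, 25 of the 51 genes overlap another gene, among them Ush1g with Otop2, Cib2 with Sh2d7, Cdh23 with Vsir and Synj2 with Serac1, and since the strand setting of the counting is not given in the sources used here, reads of such pairs may not be separable.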

How the data were processed

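Ventral otocyst RNA of 24 mouse libraries (16 TRAP, 8 pre-TRAP) was analysed from a table of raw read counts per gene as the authors deposited it. Per the submitters' processing notes, STAR, DESeq2 and GRCm38.p5 were used; no source used here gives their versions, the annotation, the counting tool or the strand setting. Of 53946 genes listed, 10068 had no count and 672 no symbol.

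Counts were scaled with TMM and tested with edgeR 4.0.16 (quasi-likelihood, filterByExpr minimum count 10, R 4.3.3), with genotype, kind of library and experiment as terms as each comparison needed. All 24 libraries entered the TRAP to pre-TRAP comparison and the test of whether the genotype difference differed between the kinds of library (24242 genes), the 16 TRAP libraries (21577 genes) and the 8 pre-TRAP libraries (21954 genes) the others. Benjamini-Hochberg adjustment ran over all genes tested, with a threshold of 0.05. DESeq2 1.42.0, limma 3.58.1 (voom), other scaling, no filter, each experiment alone and each library left out were alternatives. Intervals at 95% on summed counts are exact and cover counting error only. Replicate libraries differed beyond sampling noise in all 68 pairs compared.

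The 51 genes and the other lists were chosen with earlier results of these data known. All 51 are named. Group values are given for up to 12 rises and 8 falls among called genes in TRAP against pre-TRAP, up to 5 called genes in each direction between experiments, and, where none was called between genotypes, the 6 with the smallest p; others are described by role. Levels were to be compared between genes per length, which was not done since gene lengths were not used here. Promoter sequence is from RefSeq (GRCm38.p6), which matched 40 of 51 genes.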

Additional observations from a re-analysis of the deposited data

Results flagged for a closer look

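The 29 genes chosen for description in any comparison, a different set from those present in each TRAP library, gave 116 sets of values over 4 groups, of which 6 held a library whose gap to its nearest neighbour exceeded Dixon's 95% critical value for its group size; chance gives about 1 in 20. In TRAP het, library 9 was highest for Esrrb, at 0.924 CPM. In TRAP mut, library 6 was highest for Slc26a4, at 1.62 CPM. In pre-TRAP het, library 19 was lowest for Gjb6 at 2.82 CPM, library 17 was highest for Myo7a at 7.30 CPM, and library 23 was lowest for Ush1g at 0.0 CPM. In pre-TRAP mut, library 24 was highest for Msrb3 at 5.88 CPM.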

How the results depend on the processing

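No paired analysis was possible because the groups share no replicate number. Over all alternatives 19 to 29 genes were higher and 7 to 12 lower in TRAP than in pre-TRAP (23 to 28 and 9 to 10 with a library left out), and 29 to 31 genes met 1 CPM in each TRAP library with a library left out. Cdh23, not called, turned from -0.48 to 0.014 in experiment 1 alone, and was called lower by limma voom (-0.98, adjusted p 0.0428). Myo7a, not called, turned from 0.07 to -0.020 in experiment 2 alone and to -0.011 without the 4 TRAP libraries highest in mesenchyme markers, an alternative chosen after seeing the data; with a library left out it ran from -0.0034 to 0.16. Between genotypes in TRAP, 1 gene (Crym) was lower instead of 0 with no filter on low counts, with DESeq2 and with limma voom, and 0 to 1 with a library left out. Between experiments in TRAP, 0 genes were higher and 0 lower in het libraries alone, and 3 higher and 4 lower in mut libraries alone. Between experiments in pre-TRAP, the genes higher numbered 3 with total counts, 2 with DESeq2, 2 with limma voom and 0 in het libraries alone, against 1, and 0 to 3 with a library left out. Those lower numbered 0 with total counts, 2 with no filter, 3 with DESeq2, 4 with limma voom and 0 in het libraries alone, against 1, and 0 to 3 with a library left out. The cause was not tested. The shares of all genes called under these alternatives are not given here, so these counts of called genes have no background beside them. Whether they moved with the counts over all genes was not tested. With total counts the median log2 change of all genes between experiments was 0.18 in TRAP and 0.25 in pre-TRAP. Each genotype alone has fewer samples than the main fit, with 8 libraries in TRAP and 4 in pre-TRAP for het and mut alike. Depth limits Myo3a, Strc, Tmc2, Slc17a8, Slc26a5 and Bsnd, which entered no test.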
